A study of Homo sapiens with 12 samples.

Results

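The squamous epithelial keratins described here are 10 genes, KRT4, KRT13, KRT5, KRT14, KRT15, KRT17, KRT6A, KRT6B, KRT16 and KRT19, taken by symbol from a table of 58288 genes. All 10 were expressed well enough to be tested, among 15973 tested genes. They were measured by RNA-Seq in FaDu, an established line of head and neck squamous cell carcinoma (HNSCC), with 3 libraries in each of 4 groups. WT cells carried Cas9 and a non-targeting guide RNA, and STING KO cells carried Cas9 and a guide against STING, an adaptor that turns the sensing of DNA in the cytosol into an interferon response. Both were selected after lentiviral delivery of the guide, each genotype is represented by 1 guide, and whether the KO cells are 1 clone is not stated in the sources used here. An effect of STING loss and one of the line's own history therefore cannot be told apart. Cells of each genotype were left unirradiated (0Gy) or received radiation treatment (RT) of 4 fractions of 2 Gy. The comparisons ask how the keratins differed between genotypes, with and without radiation, and between irradiated and unirradiated cells of each genotype.

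Keratins build the intermediate filaments of epithelial cells, and a filament forms only when an acidic type I keratin pairs with a basic type II keratin. In stratified squamous epithelium the pair changes with position: KRT5 with KRT14 or KRT15 in the basal layer, KRT4 with KRT13 in the suprabasal layers of the lining mucosa of mouth, throat and esophagus. KRT6A, KRT6B, KRT16 and KRT17 are induced in wounded, activated and hyperproliferative epithelium, and KRT19 is a small type I keratin of simple and basal mucosal epithelium that lacks most of the tail domain. Squamous carcinomas keep many of these genes on, and their levels are used to describe how far the cells have differentiated.

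The 12 libraries held between 14860 and 15292 genes at 1 TPM (transcripts per 1000000 transcripts) or more, and libraries of a group correlated at 0.983 to 0.987 (Pearson r of log2(TPM + 1), across genes). TMEM173, the gene of STING, was at 22.1 ± 1.24 TPM (SD, n = 3) in unirradiated WT cells, against 5.81 ± 0.995 in the KO cells. In irradiated cells it was at 23.1 ± 2.61 TPM in WT and 6.95 ± 0.544 in KO, so transcript remained in the KO libraries at a lower level. All 10 of 10 listed type I interferon-stimulated genes were called lower in KO cells in both arms (limma, adjusted p under 0.05). Of all tested genes, 1.26% were called lower without radiation and 2.66% with it. The 6 epithelial markers other than the 10 keratins were all present. Of markers of other cell types, 1 of 6 fibroblast genes (COL1A1), 1 of 5 leukocyte genes (CD68) and VWF and CDH5 of 3 endothelial genes reached 1 TPM in any library, while LUM was at 0 throughout and PECAM1 did not pass 0.0989 TPM. The endothelial sum moved with irradiation, from 11.5 to 13.9 TPM in unirradiated WT libraries to 18.3 to 18.6 in irradiated ones, and from 13.0 to 15.9 to 19.9 to 23.9 in KO libraries. The leukocyte sum went from 16.3 to 22.3 TPM to 24.8 to 31.4 in WT libraries and overlapped in KO libraries (14.7 to 24.8 and 17.2 to 25.0). The epithelial sum went from 2414 to 3005 TPM to 3143 to 3739 in WT libraries and from 2663 to 2855 to 3471 to 3708 in KO libraries. This sum mostly follows KRT8 and KRT18, whose means went from 1448 to 1875 TPM and from 682 to 986 with irradiation in WT cells. Mean TP63 went from 98.0 to 90.9 TPM in the same cells, so the sum does not describe each marker. The part of these markers in the results was not tested. In RNA from whole cultures, fewer cells that make a keratin and less keratin RNA per cell cannot be told apart.

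The type II genes lie together on chromosome 12 and the type I genes on chromosome 17, all on the minus strand of GRCh38. KRT6B (chr12:52446651-52452126), KRT6A (chr12:52487174-52493257), KRT5 (chr12:52514575-52520687) and KRT4 (chr12:52806549-52814551) follow each other in that order. On chromosome 17 the order is KRT13 (chr17:41500981-41505705), KRT15 (chr17:41513743-41522529), KRT19 (chr17:41523617-41528308), KRT14 (chr17:41582279-41586921), KRT16 (chr17:41609778-41615899) and KRT17 (chr17:41619441-41624842). RefSeq promoter windows (GRCh38.p14) matched KRT4 and KRT5, the type II keratin that differed most between groups and the most abundant one. The 250 bases before each start are shown 5′ to 3′ on the minus strand, KRT4 at chr12:52814117-52814366 and KRT5 at chr12:52520395-52520644, with capitals for a TATA element.
KRT4: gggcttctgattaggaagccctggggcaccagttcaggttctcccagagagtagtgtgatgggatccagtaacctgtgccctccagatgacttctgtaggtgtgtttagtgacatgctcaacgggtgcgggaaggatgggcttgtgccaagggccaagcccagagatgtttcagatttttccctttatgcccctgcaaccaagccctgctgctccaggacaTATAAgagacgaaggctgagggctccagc
KRT5: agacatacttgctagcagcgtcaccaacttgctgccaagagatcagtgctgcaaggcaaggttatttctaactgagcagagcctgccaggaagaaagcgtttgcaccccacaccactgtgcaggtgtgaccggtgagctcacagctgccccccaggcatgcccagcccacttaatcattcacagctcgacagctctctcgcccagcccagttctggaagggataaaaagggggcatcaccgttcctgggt

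The TATA element was searched as the exact letters TATAA on both strands, after the sequences had been seen. It began at -29 from the KRT4 start and had no exact match in the KRT5 window. The KRT5 window holds the similar letters ataaaaa near the same place, so the search does not show that KRT5 lacks such an element. Of 35116 windows of 300 bases, 20.4% hold TATAA. The AP-1 motif TGANTCA (7.71% of windows), the gamma-activated site TTCNNNGAA (7.66%) and the interferon-stimulated element core GAAANNGAA (8.11%), each searched on both strands, were not found in either window. These letters are then absent from these windows, and nothing follows about the factors.

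KRT6A, KRT6B and the neighbouring KRT6C (chr12:52468516-52473785) share long stretches, which limits how reads can be divided among them. The first 100 coding bases of KRT6A, in exon 1 of 9 (chr12:52493089-52493188, minus strand, GRCh38), are found letter for letter in transcripts of both KRT6B and KRT6C, and are shown because a read from them cannot be assigned to 1 gene.
KRT6A: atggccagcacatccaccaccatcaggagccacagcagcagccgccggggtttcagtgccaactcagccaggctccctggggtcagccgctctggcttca

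Of all 100-base windows of the longest coding transcript, 18.2% of KRT6A and 24.6% of KRT6B occur in transcripts of another gene. The share was 14.8% in KRT13, all of it from AC019349.1 on the opposite strand, a gene whose highest mean in any group was 0.0321 TPM. It was 7.18% in KRT16, 5.95% in KRT14, 1.44% in KRT5 and 0.322% in KRT17. No window of KRT4, KRT15 or KRT19 was shared, so their values do not rest on how reads of such exact windows were divided. Near-identical stretches and other window lengths were not searched.

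The 10 keratins spanned more than 3 orders of magnitude. TPM is a level per length of transcript, so levels of different genes can be compared. In unirradiated WT cells KRT17 stood first at 4171 ± 226 TPM (SD, n = 3), followed by KRT5 at 2587 ± 146 and KRT19 at 1028 ± 23.5. KRT14 followed at 136 ± 4.67 TPM, KRT15 at 94.1 ± 18.2 and KRT6A at 82.5 ± 29.7, and the libraries of the last pair overlapped. KRT4 at 25.0 ± 3.40 TPM, KRT13 at 21.6 ± 3.73 and KRT16 at 16.8 ± 1.96 overlapped with their neighbours in the order, and KRT6B stood last at 1.50 ± 0.615. KRT14, the textbook partner of KRT5, was thus the weaker member of its pair by a factor of 19.1. In unirradiated KO cells KRT5, at 3790 ± 938 TPM, stood above KRT17, at 3406 ± 114, with overlapping libraries, and in irradiated KO cells the same pair stood at 3136 ± 400 and 3104 ± 163. In irradiated WT cells KRT16, at 32.3 ± 2.75 TPM, stood above KRT13, at 18.3 ± 1.77, and KRT13 above KRT4, at 8.67 ± 0.926, without overlap.

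**Figure D1:**
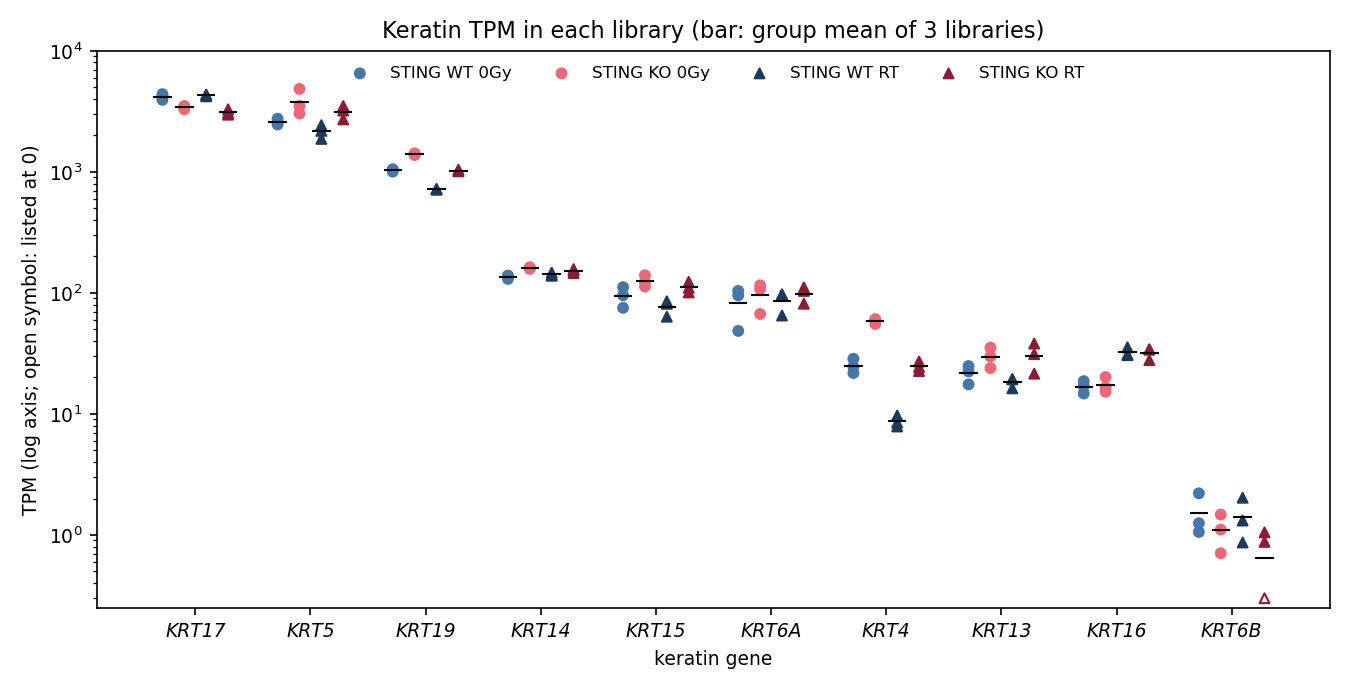
TPM of each keratin in each of the 12 libraries on a log axis, by group (circles unirradiated, triangles irradiated; blue WT, red KO), with a bar at the mean of 3 libraries. KRT17, KRT5 and KRT19 make up the top of the plot, and KRT4 shows the widest separation of groups, from 8.67 TPM in irradiated WT to 58.5 TPM in unirradiated KO cells.

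KRT4, the type II keratin of suprabasal mucosa, was higher in KO than in WT cells and lower after irradiation, and its 4 groups could be ordered with only 1 overlap. In unirradiated cells it was at 28.5, 24.6 and 21.8 TPM in WT libraries, against 55.3, 59.5 and 60.7 in the KO ones. In irradiated cells it was at 9.68, 8.47 and 7.86 TPM in WT libraries, against 22.6, 24.4 and 27.1 in the KO ones. Each KO library lay above every WT library of its arm, while irradiated KO and unirradiated WT libraries overlapped. KO cells held 2.34 times the mean TPM of WT cells without radiation, and the difference in log2(TPM + 1) was 1.20 ± 0.11 (SE; limma, adjusted p = 0.000164). With radiation the ratio was 2.85 and the difference 1.41 ± 0.11 (adjusted p = 3.14e-05). Irradiation lowered KRT4 by 1.42 ± 0.11 on this scale in WT cells (fell by 1.42, adjusted p = 9.67e-05), a ratio of 0.348. In KO cells it fell by 1.21 ± 0.11 (adjusted p = 0.000341), a ratio of 0.422.

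KRT13, the type I partner of KRT4, passed the threshold in no comparison. Its libraries stood at 24.8, 22.4 and 17.5 TPM in unirradiated WT and 23.9, 35.3 and 29.8 in unirradiated KO cells. They stood at 19.3, 19.3 and 16.3 TPM in irradiated WT and 31.1, 21.5 and 38.1 in irradiated KO cells. The genotypes overlapped without radiation and were apart with it, with KO above WT. The irradiated KO difference was 0.66 ± 0.21 (adjusted p = 0.119), and it passed, at 0.88, when KO RT replicate 2, the lowest KO library, was left out. The radiation difference of KRT13 was -0.22 ± 0.21 in WT (adjusted p = 0.650) and 0.0071 ± 0.21 in KO cells (adjusted p = 0.991, 95% interval -0.45 to 0.47), and the latter turned to -0.013 and -0.019 under other scalings.

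Because KRT4 moved more than KRT13, the ratio of the 2 partners separated the libraries in each of the 4 comparisons. There were 1.16 KRT4 transcripts per KRT13 transcript in unirradiated WT cells (mean of 3 libraries, range 1.09 to 1.24) and 2.01 in unirradiated KO cells (1.69 to 2.31). After irradiation the ratio was 0.474 in WT (0.438 to 0.502) and 0.857 in KO cells (0.711 to 1.14). No libraries overlapped in the 4 comparisons, and each two-sided exact permutation test gave p = 0.1, the smallest that 3 against 3 libraries allow (0.257 adjusted over 18 partner tests).

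**Figure D2:**
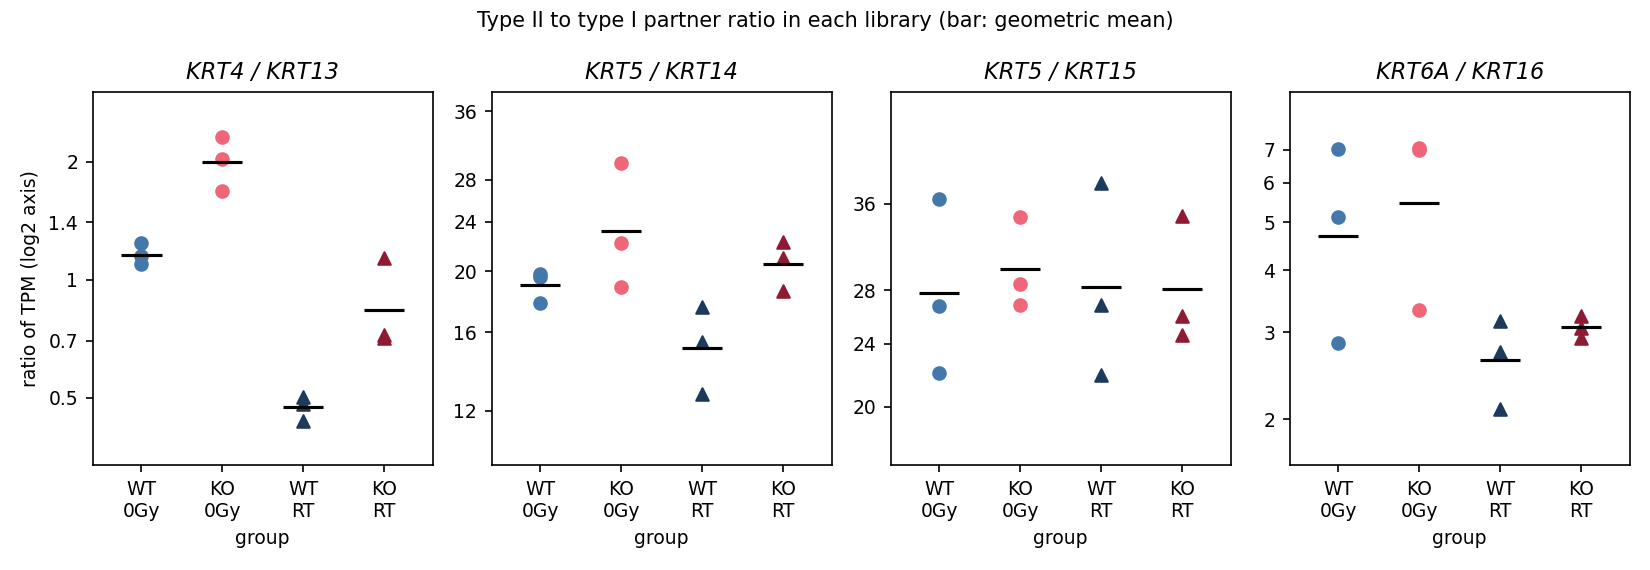
Ratio of the TPM of a type II keratin to that of its type I partner in each library, on log2 axes with a separate range per panel, by group; bars are geometric means of 3 libraries. The KRT4 to KRT13 ratio runs from a mean of 0.474 in irradiated WT to 2.01 in unirradiated KO cells, with overlap only between irradiated KO and unirradiated WT libraries, while the KRT5 to KRT15 ratio overlaps in all groups.

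KRT5, the type II keratin of basal cells, was higher in every KO library than in every WT library of its arm, with wide spread. It was at 2459, 2746 and 2555 TPM in unirradiated WT and 3032, 4839 and 3499 in unirradiated KO cells. It was at 1869, 2177 and 2426 TPM in irradiated WT and 3497, 2706 and 3205 in irradiated KO cells. KO replicate 2 of the unirradiated arm was the highest library. The KO difference was 0.52 ± 0.16 without radiation (adjusted p = 0.162) and 0.54 ± 0.16 with it (adjusted p = 0.107), and neither passed. Without that library the unirradiated difference was 0.33, while the irradiated difference passed at 0.54 (adjusted p = 0.0415, the range over all alternatives being 0.0415 to 0.272). The radiation differences were -0.27 ± 0.16 in WT (adjusted p = 0.429) and -0.25 ± 0.16 in KO cells (adjusted p = 0.460), with all 3 irradiated WT libraries below the unirradiated ones.

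KRT14, the usual type I partner of KRT5, had the closest replicates of the basal keratins and a small genotype difference. It was at 138, 139 and 130 TPM in unirradiated WT and 161, 163 and 158 in unirradiated KO cells. It was at 147, 141 and 138 TPM in irradiated WT and 157, 146 and 153 in irradiated KO cells. KO libraries lay above WT without radiation and overlapped with them after it. KRT14 rose by 0.24 ± 0.044 in unirradiated KO cells (adjusted p = 0.0217), and the difference in irradiated cells was 0.096 ± 0.044 (adjusted p = 0.290). The first call did not hold when any 1 of the 6 libraries compared was left out, with differences of 0.21 to 0.25 (adjusted p up to 0.105 over all alternatives). The radiation differences of KRT14 were 0.063 ± 0.044 in WT and -0.078 ± 0.044 in KO cells (adjusted p = 0.512 and 0.392).

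KRT15, a type I keratin of basal cells, was at 111, 75.2 and 95.6 TPM in unirradiated WT and 113, 140 and 122 in unirradiated KO cells. It was at 85.1, 81.1 and 63.5 TPM in irradiated WT and 101, 110 and 123 in irradiated KO cells. All KO libraries lay above the WT libraries of their arm, narrowly without radiation. The differences of 0.42 ± 0.15 (adjusted p = 0.243) and 0.54 ± 0.15 (adjusted p = 0.0914) did not pass. KRT5 and KRT15 kept a ratio of 28.4 to 30.0 in the means of the 4 groups (exact permutation p of 0.6 to 1 in 4 comparisons). The KRT5 to KRT14 ratio was 19.1, 23.6, 15.3 and 20.6 in unirradiated WT, unirradiated KO, irradiated WT and irradiated KO cells, apart between genotypes only with radiation and between doses only in WT (exact permutation p = 0.1 for each of those, 0.3 and 0.5 for the other two).

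KRT17, a type I keratin of activated epithelium and the most abundant keratin of the 10 in WT cells, was the one member called lower in KO cells. It was at 4380, 3931 and 4203 TPM in unirradiated WT and 3440, 3499 and 3279 in unirradiated KO cells. It was at 4307, 4200 and 4337 TPM in irradiated WT and 3069, 2962 and 3282 in irradiated KO cells. No KO library reached a WT library. KRT17 fell by 0.29 ± 0.050 without radiation (adjusted p = 0.0141), a ratio of 0.817, and by 0.46 ± 0.050 with it (adjusted p = 0.000492), a ratio of 0.725. The first call was lost without WT 0Gy replicate 1 (-0.26), WT 0Gy replicate 3 (-0.29) or KO 0Gy replicate 3 (-0.26), and with no filter on low genes (adjusted p of 0.0107 to 0.127 over all alternatives). The radiation difference of KRT17 was 0.039 ± 0.050 in WT cells (adjusted p = 0.751, 95% interval -0.073 to 0.15). In KO cells it was -0.13 ± 0.050 (adjusted p = 0.186, 95% interval -0.25 to -0.023).

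KRT16, a type I keratin of wounded epithelium, rose after irradiation in both genotypes. It was at 18.6, 14.7 and 17.0 TPM in unirradiated WT and 16.5, 20.2 and 15.2 in unirradiated KO cells. It was at 35.5, 30.5 and 30.9 TPM in irradiated WT and 34.2, 33.9 and 27.8 in irradiated KO cells. All irradiated libraries lay above all unirradiated ones, and the genotypes overlapped in both arms. The rise was 0.91 ± 0.12 in WT (adjusted p = 0.00339), a ratio of 1.93, and 0.85 ± 0.12 in KO cells (adjusted p = 0.00510), a ratio of 1.85. The KO difference was 0.038 ± 0.12 without radiation (95% interval -0.24 to 0.31) and -0.017 ± 0.12 with it (-0.29 to 0.26).

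KRT6A, the type II keratin that pairs with KRT16, passed in no comparison. It was at 95.2, 104 and 48.5 TPM in unirradiated WT and 115, 66.9 and 107 in unirradiated KO cells. It was at 97.2, 96.7 and 64.9 TPM in irradiated WT and 111, 104 and 81.3 in irradiated KO cells. All groups overlapped, and each holds a library well below the other two except irradiated KO. The radiation difference was 0.11 ± 0.30 in WT and 0.057 ± 0.30 in KO cells (adjusted p = 0.894 and 0.948), with 95% intervals that reached 0.78 and 0.73, so a change of the size seen in KRT19 was not detectable. The KRT6A to KRT16 ratio ranged from 2.85 to 7.04 in unirradiated and from 2.10 to 3.17 in irradiated WT cells (exact permutation p = 0.2), and had means of 5.79 and 3.07 in unirradiated and irradiated KO cells (exact permutation p = 0.1, the smallest possible).

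KRT6B, the second KRT6 gene, was near the lower limit of the table. It was at 2.21, 1.25 and 1.06 TPM in unirradiated WT and 1.48, 0.706 and 1.11 in unirradiated KO cells. It was at 2.03, 1.32 and 0.866 TPM in irradiated WT and 1.05, 0.876 and 0 in irradiated KO cells, where replicate 3 is listed at 0. The libraries overlapped in all 4 comparisons, and none passed (adjusted p of 0.344 or more). Since reads can be shared with KRT6A and KRT6C, a value listed at 0 does not show that the gene is silent. KRT6C was itself low, with group means of 1.74 to 4.22 TPM.

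KRT19, the tail-less type I keratin, varied between replicates by 0.755% to 2.29% of its mean and changed in all 4 comparisons. It was at 1050, 1003 and 1029 TPM in unirradiated WT and 1390, 1376 and 1422 in unirradiated KO cells. It was at 723, 715 and 712 TPM in irradiated WT and 1040, 1016 and 1009 in irradiated KO cells. KO libraries lay above WT libraries in both arms and irradiated below unirradiated in both genotypes, while irradiated KO and unirradiated WT libraries overlapped. KRT19 rose by 0.44 ± 0.031 in unirradiated KO cells (adjusted p = 2.74e-05), a ratio of 1.36, and by 0.51 ± 0.031 in irradiated KO cells (adjusted p = 7.84e-06), a ratio of 1.43. Radiation lowered it, and KRT19 fell by 0.52 ± 0.031 in WT cells (adjusted p = 2.14e-05), a ratio of 0.697, and by 0.45 ± 0.031 in KO cells (adjusted p = 9.29e-05), a ratio of 0.732.

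**Figure D3:**
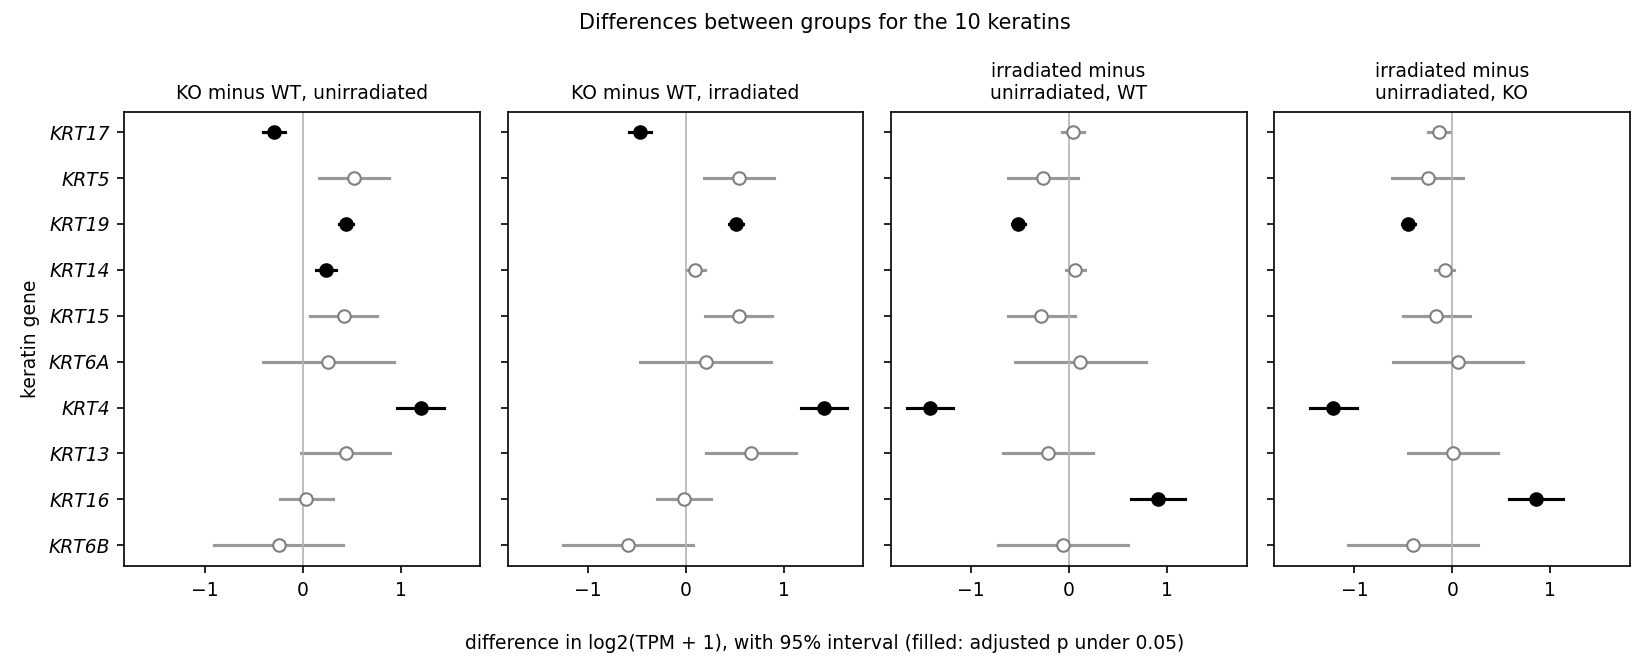
Difference in log2(TPM + 1) of each keratin with its 95% interval in 4 comparisons; filled points have an adjusted p under 0.05 in limma. KRT4 and KRT19 are displaced to the right in both KO comparisons and to the left in both radiation comparisons, KRT17 falls in KO cells and KRT16 rises with radiation.

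KRT4, KRT19 and KRT14 were called higher in unirradiated KO cells, 3 of 10 keratins where 0.463% of all tested genes were, and KRT17 was called lower, 1 of 10 where 1.26% were. In irradiated KO cells 2 were called higher (KRT4 and KRT19, background 0.927%) and 1 lower (KRT17, background 2.66%). After irradiation 1 was called higher and 2 lower in each genotype, KRT16 against KRT4 and KRT19. The background was 2.24% higher and 1.50% lower in WT cells, and 2.00% higher and 1.70% lower in KO cells. By libraries that do not overlap, 5 of 10 keratins stood higher in unirradiated KO cells (background 8.51%) and 1 lower (12.1%). In irradiated KO cells it was 5 higher (9.62%) and 1 lower (14.5%). For radiation it was 1 higher (14.7%) and 3 lower (10.1%) in WT cells, and 1 higher (13.7%) and 3 lower (10.6%) in KO cells. The median difference of the 10 keratins was 0.34 and 0.36 in unirradiated and irradiated KO cells, beside -0.021 and -0.017 over all tested genes. It was -0.14 and -0.15 after irradiation in WT and KO cells, beside 0.017 and 0.019.

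No keratin passed the test of whether the radiation effect differed between genotypes (limma, 0 of 10 called, with 3 of 15973 genes called in all, or 0.0188%). At an unadjusted p under 0.05 there were 2 keratins, KRT17 at -0.17 ± 0.071 and KRT14 at -0.14 ± 0.062, among 1056 genes. Their adjusted p was 0.744 and 0.750. For KRT4 the radiation effect differed by 0.21 ± 0.15 (95% interval -0.13 to 0.54), and for KRT19 by 0.069 ± 0.044 (-0.029 to 0.17). For KRT16 the difference was -0.056 ± 0.17 (-0.44 to 0.33). The genotype and the radiation differences of KRT4 and KRT19 ran in opposite directions and were of similar size. Set side by side after the values had been seen, irradiated KO minus unirradiated WT cells gave -0.010 for KRT4 (95% interval -0.25 to 0.23) and -0.0081 for KRT19 (-0.078 to 0.062). The same difference was -0.43 for KRT17 (-0.54 to -0.31), 0.89 for KRT16 (0.62 to 1.16) and 0.16 for KRT14 (0.062 to 0.26).

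Summed, the 10 keratins took 0.816% of all TPM in unirradiated WT, 0.908% in unirradiated KO, 0.752% in irradiated WT and 0.771% in irradiated KO cells. The 4 type II keratins summed to 2696 ± 157 TPM in unirradiated WT and 3946 ± 913 in unirradiated KO cells (log2 ratio 0.53, or 0.35 without KO 0Gy replicate 2). They summed to 2254 ± 262 TPM in irradiated WT and 3260 ± 401 in irradiated KO cells (0.53). The sum was carried by KRT5, and KO libraries lay above WT libraries in both arms. The 6 type I keratins summed to 5467 ± 270 TPM in unirradiated WT and 5134 ± 104 in unirradiated KO cells (-0.090, overlapping). They summed to 5267 ± 70.4 TPM in irradiated WT and 4452 ± 173 in irradiated KO cells (-0.24, not overlapping). Within these 10 keratins, type II transcripts per type I transcript were thus 0.495 in unirradiated WT against 0.767 in unirradiated KO, and 0.428 against 0.732 after irradiation. Keratins outside the 10 are not in this ratio, among them type II KRT8 at 1448 TPM and type I KRT18 at 682 in unirradiated WT cells. It is therefore not the balance of all keratins in the cells. KRT17 took 51.1% of the keratin sum in unirradiated WT and 37.7% in unirradiated KO cells, while KRT5 took 31.7% and 41.3%. Each sum was compared over 8 tests by the two-sided exact permutation test, where 5 gave p = 0.1, the smallest possible (0.16 adjusted), and the type I sum without radiation gave p = 0.2.

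**Figure D4:**
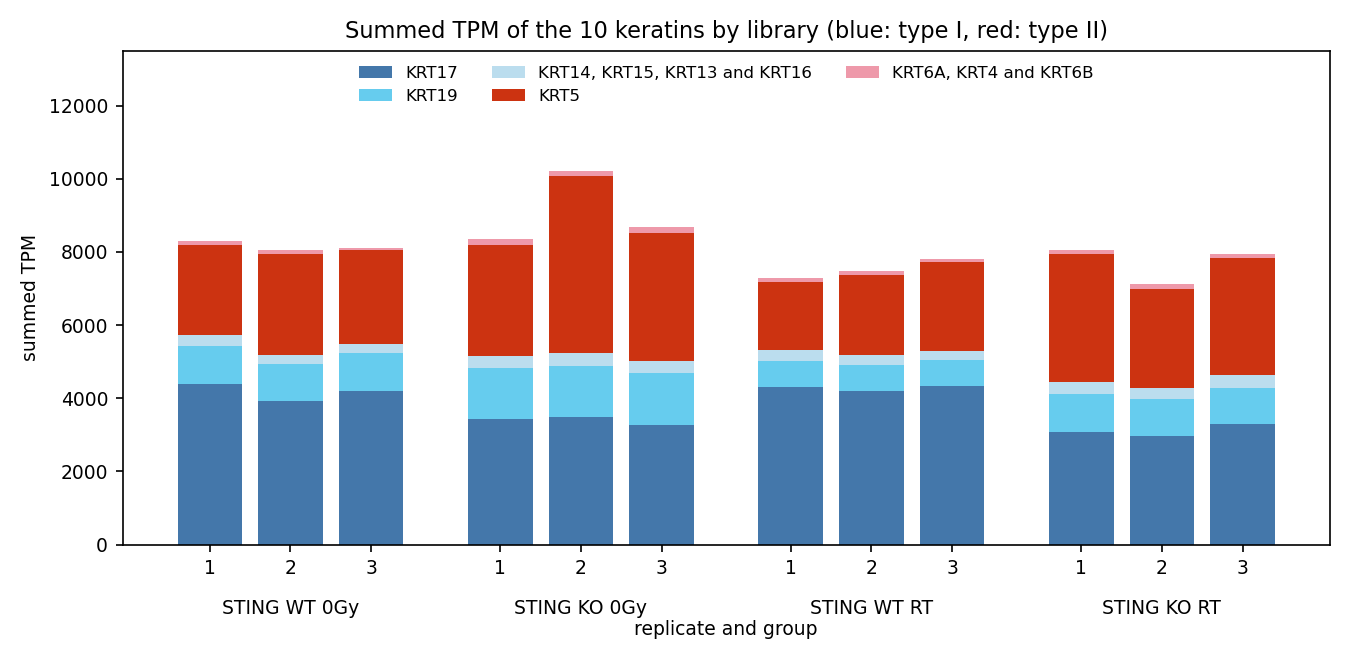
Summed TPM of the 10 keratins in each library as stacked bars from 0, with type I keratins in blue (KRT17, KRT19, the other 4) and type II keratins in red (KRT5, the other 3), by group and replicate. KRT17 and KRT5 make up most of each bar, and the KRT5 part is larger in KO libraries, most of all in replicate 2 of unirradiated KO cells at 4839 TPM.

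Keratins outside the 10 were called in 1 direction with radiation. Of 45 other keratins, 11 passed the expression filter, and 0 changed between genotypes in either arm. With radiation 4 of 11 rose and 0 fell in WT cells (background 2.24% higher), and 7 rose and 0 fell in KO cells (2.00% higher). The median radiation difference of the 11 was 0.47 in WT and 0.56 in KO cells, beside 0.017 and 0.019 over all tested genes. Whether they differ from the 10 was not tested. The 4 in WT cells were KRT18, KRT7, KRT75 and KRT81, and the same 4 genes rose in KO cells with KRT23, KRT32 and KRT86. Of these, KRT75, KRT81, KRT23, KRT32 and KRT86 were low, with means over the 12 libraries from 0.871 (KRT75) to 3.49 TPM (KRT86). KRT18, the type I keratin of simple epithelium, went from 682 ± 46.5 to 986 ± 27.0 TPM in WT cells (0.53 ± 0.053, adjusted p = 0.000597) and from 759 ± 28.7 to 1063 ± 29.6 in KO cells (0.49 ± 0.053, adjusted p = 0.000957). KRT8, its type II partner and the most abundant of the 11, was at 1448 ± 275 and 1875 ± 310 TPM in unirradiated and irradiated WT cells (0.38 ± 0.13, adjusted p = 0.171). KRT7, another type II keratin of simple epithelium, went from 90.9 ± 25.9 to 191 ± 15.6 TPM in WT cells (1.11 ± 0.17, adjusted p = 0.00637) and from 83.8 ± 2.78 to 171 ± 7.36 in KO cells (1.02 ± 0.17, adjusted p = 0.00980).

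**Figure D5:**
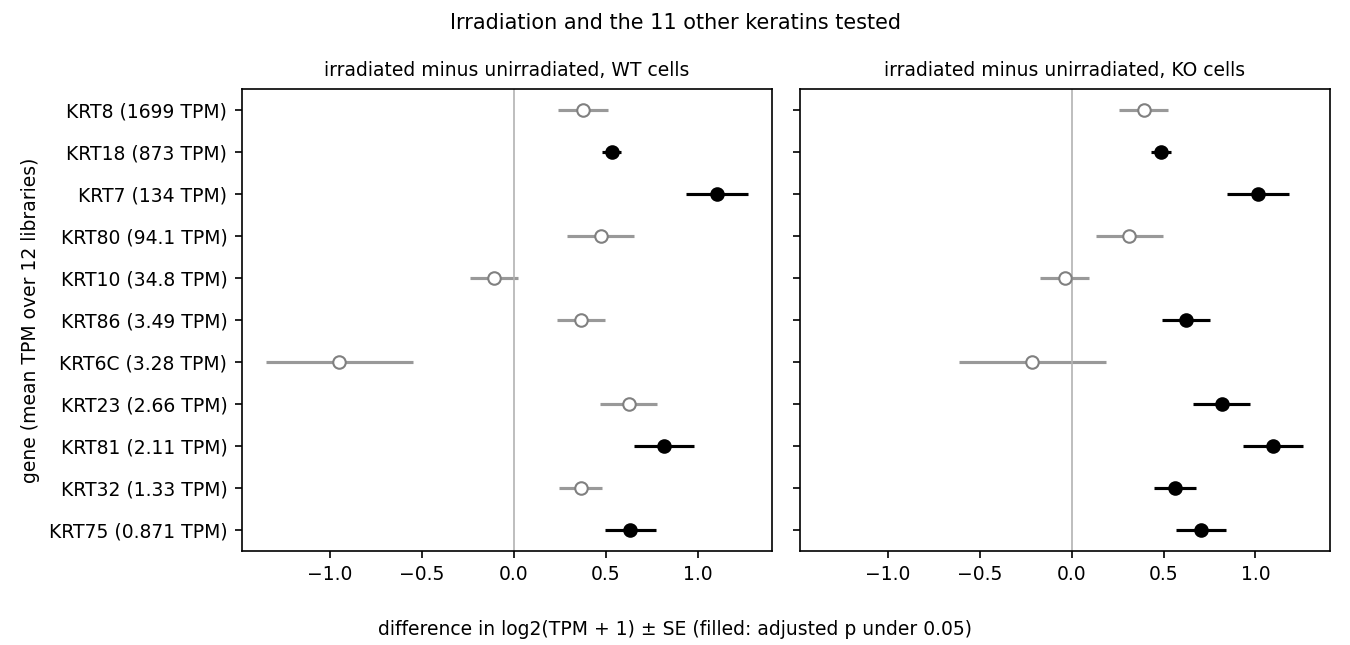
Difference in log2(TPM + 1) ± SE between irradiated and unirradiated cells for the 11 other keratins that could be tested, ordered by mean TPM; filled points have an adjusted p under 0.05 in limma. All filled points lie right of 0, with 4 in WT and 7 in KO cells, and KRT10 and KRT6C lie left of it.

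A pseudogene of KRT16 stood apart from the gene. KRT16P6, annotated as a transcribed unprocessed pseudogene (chr17:16817983-16822579, minus strand), was the only one of the listed KRT16, KRT17 and KRT19 pseudogenes with a mean above 10 TPM. It was at 16.5 ± 0.667 TPM in unirradiated WT, 7.58 ± 0.637 in unirradiated KO, 27.3 ± 2.71 in irradiated WT and 12.4 ± 1.28 in irradiated KO cells. It fell by 1.03 ± 0.095 in unirradiated KO cells (adjusted p = 0.000223) and by 1.08 ± 0.095 in irradiated KO cells (adjusted p = 0.000108), where KRT16 itself did not pass. With radiation KRT16P6 rose by 0.69 ± 0.095 in WT cells (adjusted p = 0.00349), and in KO cells by 0.64 ± 0.095 (adjusted p = 0.00547), as KRT16 did. KRT16 transcripts per KRT16P6 transcript ranged from 0.938 to 1.26 in WT libraries and from 2.07 to 2.95 in KO libraries. KRT16P6 shared 0.620% of its 100-base windows with other genes, and none of those of KRT16 were among its listed matches.

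Few genes that work beside keratins were called between genotypes, and more were called with radiation in KO cells. Of 20 genes that anchor, link or modify keratin filaments, 18 were tested, and 0 differed between genotypes without radiation (0.463% of all tested genes were called higher and 1.26% lower). SFN, a 14-3-3 protein that binds KRT17, was the only one that differed between genotypes after irradiation, and it fell by 0.21 in KO relative to WT cells (adjusted p = 0.0378, background 2.66% lower). TRIM29 was the only one called with radiation in WT cells, where it fell by 0.58 (adjusted p = 0.00549, background 1.50% lower). With radiation in KO cells 6 of 18 were called lower and 0 higher (background 1.70% lower). Among them were TRIM29 (fell by 0.47, adjusted p = 0.0162) and the junction proteins PKP1 (fell by 0.54, adjusted p = 0.0417) and JUP (fell by 0.17, adjusted p = 0.0489). In WT cells PKP1 fell by 0.50 and JUP by 0.0997 without a call (adjusted p = 0.0561 and 0.217). A radiation effect that differed between genotypes was called for 0 of 18 (background 0.0188%). Of 24 genes of squamous mucosal differentiation, 16 were tested. SCEL, a cornified envelope precursor, was the only one called between genotypes and was higher by 0.42 in irradiated KO than in irradiated WT cells (adjusted p = 0.0331, background 0.927% higher). The median KO difference of the 16 was 0.35 without radiation and 0.22 with it, beside -0.021 and -0.017 over all tested genes. With radiation SPRR1B, another envelope precursor, rose in both genotypes (0.82 and 0.95), and TGM1, the crosslinking enzyme of the envelope, fell in both (fell by 0.62 in WT and by 0.83 in KO cells). CSTA and SCEL were called lower with radiation only in WT cells, and LY6D only in KO cells. Their differences in WT and KO cells were -0.26 and -0.13 for CSTA, -0.40 and -0.28 for SCEL, and -0.46 and -0.63 for LY6D. None of the 16 was called for a radiation effect that differed between genotypes. In all, 1 of 16 rose and 3 fell in WT cells (background 2.24% and 1.50%), and 1 rose and 2 fell in KO cells (2.00% and 1.70%).

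Of 24 factors known to act on keratin genes, 23 were tested. Relative to WT cells, SOX2 was higher and KLF4 lower in unirradiated KO cells (background 0.463% higher and 1.26% lower). KLF4, a factor of suprabasal differentiation, was at 23.7 ± 5.29 TPM in unirradiated WT and 5.62 ± 0.769 in unirradiated KO cells (difference -1.88, adjusted p = 0.000151). It was at 29.5 ± 3.31 TPM in irradiated WT and 8.37 ± 1.04 in irradiated KO cells (-1.70, adjusted p = 0.000220). Relative to irradiated WT cells, SOX2, GRHL1 and NOTCH1 were higher and KLF4 and FOSL1 lower in irradiated KO cells (background 0.927% and 2.66%). With radiation 2 rose and 3 fell in WT cells (background 2.24% and 1.50%), and 3 rose and 3 fell in KO cells (2.00% and 1.70%). FOSL1, a subunit of AP-1, was at 164 ± 24.1 TPM in unirradiated WT and 278 ± 7.95 in irradiated WT cells (0.76, adjusted p = 0.00140). It was at 146 ± 1.87 TPM in unirradiated KO and 207 ± 9.28 in irradiated KO cells (0.50, adjusted p = 0.0155). For FOSL1 the radiation effect differed by -0.27 ± 0.13 (KO minus WT, adjusted p = 0.760). ELF3, the most abundant of the 23, fell by 0.80 in WT and by 0.74 in KO cells (adjusted p = 0.00457 and 0.00636). Factors beyond the most abundant and the smallest adjusted p, and the same in the other lists, are named here because the counts were small, after their values had been seen.

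For each keratin the tested gene outside the 10 with the most similar pattern over the 12 libraries was found by Pearson r of log2(TPM + 1). The libraries fall into 4 groups, so r mostly reflects shared group differences. KRT4 was most like DSC3, a desmosomal cadherin (r = 0.994), and KRT19 most like WNT9A (r = 0.994). For KRT16 it was SEC23B (0.965) and for KRT17 RNF144A (0.957). The values were 0.947 for KRT15 with TMCO1, 0.936 for KRT6A with MANBA, 0.930 for KRT14 with RUSC1, 0.919 for KRT5 with AC021106.1, 0.914 for KRT6B with ZNF768 and 0.905 for KRT13 with SORCS2.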

How the data were processed

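RNA of FaDu cells was polyadenylated RNA sequenced as paired ends. The authors deposited TPM per gene and library; the submitters' processing notes name HISAT2, StringTie, DESeq2 and hg38, without roles or versions. The table's columns carry codes of the cell lines. NT2 was taken as the non-targeting guide and A63 as the other genotype, STING KO, and what A63 stands for is not stated. Of 150 compared entries, 150 matched the study's own heads within 0.001. TPM keeps no depth, so counting error is unknown and the spread between 3 libraries is the measure of error. The labels do not say that replicates are separate cultures, so p-values measure the spread between these libraries, which may be technical. No batch or date is labelled.

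From TPM, log2(TPM + 1) was fitted for the 15973 genes that reached 1 TPM in 3 or more of 12 libraries (25770 were at 0 in all), as 4 group means with limma 3.58.1 in R 4.3.3 (eBayes with trend, 8 residual degrees of freedom, 5 contrasts, Benjamini-Hochberg over all tested genes, threshold 0.05). A difference on this scale understates changes of low genes. Sums and ratios of TPM were tested by two-sided exact permutation of libraries (scipy 1.17.1). Code was tested on simulated data. Same-numbered libraries deviated together with r of -0.060 to 0.064, so the numbers do not pair them. The keratins and lists were chosen with earlier results of these data known. Named genes are the 10 keratins, TMEM173, the most similar gene to each keratin, and up to 4 of each list (most abundant, or smallest adjusted p), with others named after their values were seen where counts were small. Positions and shared windows come from GENCODE 29. A result for 1 listed transcription factor is not reported here.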

Additional observations from a re-analysis of the deposited data

How the results depend on the processing

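The results were recomputed with a pseudocount of 0.1, without a filter, with a filter at a mean of 5 TPM, with median-of-ratios and with quantile scaling, no variance trend, a replicate block, only the 6 libraries compared, and each library left out. KRT4 and KRT19 in the KO and radiation comparisons, KRT17 in irradiated KO cells and KRT16 with radiation kept direction and call under all that could be run. With the replicate block the counts of keratins called were 4, 3, 3, 3 and 0, as without it, and no call changed. The count in unirradiated KO cells was 2 with only the 6 libraries compared, and 2 to 4 when a library was left out, since KRT14 and KRT17 lose their calls, and KRT14 also without the variance trend. In irradiated KO cells it was 3 to 4. The type I sum of irradiated over unirradiated KO cells was -0.13 after quantile scaling, beside -0.21; the cause was not tested.

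Among values that did not pass, KRT16 in irradiated KO cells turned to 0.0046 with median-of-ratios and 0.011 with quantile scaling, and KRT13 with radiation in KO cells to -0.013 and -0.019. Leaving out libraries turned the sign of the following. In unirradiated KO cells, KRT6A ranged from -0.080 to 0.50 and KRT16 from -0.071 to 0.12, and in irradiated KO cells KRT16 from -0.068 to 0.077. With radiation in WT cells, KRT17 ranged from -0.0033 to 0.075, KRT6A from -0.23 to 0.31 and KRT6B from -0.24 to 0.13. In KO cells, KRT13 ranged from -0.17 to 0.23 and KRT6A from -0.19 to 0.20. For the difference of the radiation effects, KRT5 ranged from -0.13 to 0.21, KRT15 from -0.0086 to 0.27, KRT6A from -0.30 to 0.28 and KRT16 from -0.14 to 0.054. The TPM table gives no counts, so what depth allows for KRT6B cannot be stated.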
